A study of Mus musculus with 2 samples.

Results

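The 8 genes described here, Klrd1, Klrc1, Klrc2, Klrc3, Klrk1, Klre1, Klri1 and Klri2, encode the NKG2 and Klre/Klri lectin receptors and were taken by symbol from the 32285 genes counted in each library. The cells, from mouse bone marrow, were sorted as progenitors of natural killer cells (NKP): CD122-positive cells without NK1.1, Ncr1, c-kit, Sca-1 or lineage markers, whose RNA was counted cell by cell at the 3' end. There were 2 libraries, 1 from Irf4-/- mice, which lack an interferon regulatory factor, and 1 from wild-type (WT) C57BL/6 mice. The labels do not say which part of Irf4 the allele lacks, how many mice were pooled or how old they were. With 1 library per genotype no test was possible, and a difference between the libraries cannot be told apart from a difference between 2 sorts or 2 preparations. The 8 genes were chosen by their levels in these same libraries, so every ratio between libraries below is a description.

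The receptors belong to the C-type lectin-like family of the natural killer gene complex and sit on natural killer cells and on memory-like and innate-like T cells. CD94, the product of Klrd1, pairs with NKG2A (Klrc1), which carries an inhibitory motif, or with the activating NKG2C (Klrc2) and NKG2E (Klrc3), and these pairs read the non-classical class I molecule Qa-1 (H2-T23). NKG2D (Klrk1) forms a homodimer that signals through the adaptor DAP10 (Hcst) or, in mice, also DAP12 (Tyrobp), and binds the stress-induced Rae1, H60 and MULT1 proteins. Klre1 pairs with the inhibitory Klri1 or the activating Klri2, as shown in rats and mice.

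Of 8147 and 12732 barcodes in the libraries labelled Irf4-/- and WT, 7955 and 12367 were kept, with a median of 9540 and 7125 unique molecular identifiers (UMIs, counted molecules) per cell. The libraries share 27 barcode sequences. By CD3 transcripts and few B cell transcripts, 82.1% of kept cells of the library labelled Irf4-/- and 87.7% of the WT library fell into 3 T cell classes, which goes against the NKP label. These were alpha-beta T cells with a Cd8b1 UMI (Cd8b1-positive; 2749 Irf4-/- and 6368 WT cells), alpha-beta T cells without one (Cd8b1-negative; 2990 and 3180 cells) and gamma-delta T cells (794 and 1303 cells). Ncr1, a defining natural killer marker, had 0, 34 and 30 UMIs in these classes of the library labelled Irf4-/-, against 7, 3 and 6 in WT. Irf4 had 97, 79 and 13 UMIs in the library labelled Irf4-/-, against 69, 20 and 6 in WT, and counts of transcript ends outside the deleted part would not check the genotype.

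In the annotation of build GRCm38 the 8 genes lie side by side on chromosome 6, between positions 129577905 and 129740484, a span of 162.58 kb. Klre1 and Klrd1 are on the plus strand with 5954 bases between them, and Klrk1, Klrc3, Klrc2, Klrc1, Klri1 and Klri2 follow on the minus strand. RefSeq promoter windows of GRCm38.p6, from 250 bases before to 50 bases after a start, were matched for 6 of the 8 genes; Klrd1 and Klri2 were not matched. The 4 windows below are shown because these genes form the NKG2 block and because Klrc2 and Klrc3 have nearly the same promoter. Capitals mark TGTGGT or, on the other strand, ACCACA, the core bound by RUNX factors.
Klrc3 (chr6:129643239-129643538, minus strand): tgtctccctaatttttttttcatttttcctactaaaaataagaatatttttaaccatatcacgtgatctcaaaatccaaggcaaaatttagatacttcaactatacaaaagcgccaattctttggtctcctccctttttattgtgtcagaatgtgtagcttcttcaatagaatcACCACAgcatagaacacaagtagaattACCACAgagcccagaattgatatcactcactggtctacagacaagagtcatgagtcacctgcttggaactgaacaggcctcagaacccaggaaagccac
Klrc2 (chr6:129660507-129660806, minus strand): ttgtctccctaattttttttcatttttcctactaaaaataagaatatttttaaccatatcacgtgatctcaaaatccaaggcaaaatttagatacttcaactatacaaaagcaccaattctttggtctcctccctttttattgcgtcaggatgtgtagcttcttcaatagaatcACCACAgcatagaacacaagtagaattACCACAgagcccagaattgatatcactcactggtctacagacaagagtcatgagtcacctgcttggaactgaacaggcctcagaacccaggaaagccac
Klrc1 (chr6:129678924-129679223, minus strand): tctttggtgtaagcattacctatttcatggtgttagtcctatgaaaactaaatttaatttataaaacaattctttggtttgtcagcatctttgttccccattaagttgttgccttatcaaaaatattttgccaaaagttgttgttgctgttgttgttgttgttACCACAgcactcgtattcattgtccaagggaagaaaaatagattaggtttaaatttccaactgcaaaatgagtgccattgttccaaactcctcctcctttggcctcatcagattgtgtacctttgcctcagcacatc
Klrk1 (chr6:129623815-129624114, minus strand): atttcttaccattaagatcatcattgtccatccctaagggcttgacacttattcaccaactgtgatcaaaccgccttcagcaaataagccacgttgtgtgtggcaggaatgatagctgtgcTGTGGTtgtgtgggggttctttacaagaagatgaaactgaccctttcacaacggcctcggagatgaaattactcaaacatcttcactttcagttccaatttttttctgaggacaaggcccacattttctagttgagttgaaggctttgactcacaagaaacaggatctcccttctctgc
The Klrc3 and Klrc2 windows were identical at 296 of 299 aligned bases. Klrc2 and Klrc1 aligned over only 166 bases, with 45 bases in gaps, and were identical at 120. Klrk1 and Klri1 gave 136 of 161, so such short alignments are not read as likeness. The RUNX core was found in windows of 5 of the 6 matched genes, all but Klri1, and in 16.8% of 32851 promoter windows. A gene was counted if any of its windows had a match, whereas the percentages here and below are of single windows. Klre1 and Klrc2 have more than a single window, and the Klre1 window from position 129578036 had no RUNX core. The AP-1 motif TGANTCA was in windows of Klrc2, Klrc3 and Klrk1, and in 7.81% of all windows. GGAA, 2 bases of any kind and GAAA, a composite of ETS and IRF letters, was in windows of Klri1 and Klrk1, and in 2.72% of all windows. No window of the 6 genes held the IRF element, GAAA, 2 bases of any kind and GAAA,, or the T-box letters GGTGTGA, which were in 3.44% and 3.98% of all windows. Both strands were searched, and a match of letters is a description and not a site.

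The data show Klrd1 as the most abundant of the 8 transcripts in every class of both libraries, and Klrc3, Klri1 and Klri2 as rare ones. Levels are given as CPM, the gene's UMIs for each 1000000 UMIs of the class, a scale that is not corrected for transcript length, since the libraries count transcript ends. Higher CPM in a sum over cells can mean more positive cells or more RNA per cell, and the shares of cells further on bear on that. All 8 genes had at least 20 UMIs in the 2 libraries together in each of the 3 classes, the minimum for a ratio. Ratios are log2 of CPM, Irf4-/- over WT, with 95% intervals that cover counting error only.

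Klrd1, the common partner chain of the NKG2A, NKG2C and NKG2E receptors, differed little between the libraries. In Cd8b1-positive cells it was at 329.6 CPM in the library labelled Irf4-/- and 262 CPM in WT, a log2 ratio of 0.33 (0.29 to 0.37). In Cd8b1-negative cells it was at 480.0 CPM in Irf4-/- and 474 CPM in WT, a log2 ratio of 0.02 (-0.02 to 0.06). In gamma-delta cells it was at 460.3 CPM in Irf4-/- and 379 CPM in WT, a log2 ratio of 0.28 (0.21 to 0.35). The partner chain was thus within counting error between the libraries in Cd8b1-negative cells and slightly higher in the Irf4-/- library in the others.

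Klrc1, the inhibitory chain, was higher in the library labelled Irf4-/- in all 3 classes. It was at 44.3 CPM in Irf4-/- and 14.8 CPM in WT in Cd8b1-positive cells, a log2 ratio of 1.58 (1.46 to 1.71). Cd8b1-negative cells had 82.6 CPM in Irf4-/- and 33.1 CPM in WT, a log2 ratio of 1.32 (1.20 to 1.44). Gamma-delta cells had 135 CPM in Irf4-/- and 77.5 CPM in WT, a log2 ratio of 0.80 (0.66 to 0.94). The Klrc1 ratio was thus larger in both alpha-beta classes than in gamma-delta cells, with intervals that do not overlap.

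Klrc2, the activating chain next to it on the chromosome, followed the same direction. Its level was 69.8 CPM in Irf4-/- and 21.9 CPM in WT in Cd8b1-positive cells, a log2 ratio of 1.67 (1.57 to 1.77). It was 141 CPM in Irf4-/- and 74.2 CPM in WT in Cd8b1-negative cells, a log2 ratio of 0.93 (0.84 to 1.01), and 142 CPM in Irf4-/- and 82.4 CPM in WT in gamma-delta cells, a log2 ratio of 0.78 (0.64 to 0.92). Inhibitory and activating chains were thus both higher in the library labelled Irf4-/-. Klrc1 made up 38.9% of the Klrc1 and Klrc2 UMIs of Cd8b1-positive cells in Irf4-/- and 40.4% in WT. The share was 36.9% (35.8 to 38.1) in Irf4-/- and 30.9% (29.0 to 32.8) in WT among Cd8b1-negative cells, and 48.7% in Irf4-/- and 48.4% in WT among gamma-delta cells. Intervals of the share overlapped between libraries in Cd8b1-positive and gamma-delta cells, while in Cd8b1-negative cells the share of Klrc1 was higher in Irf4-/- beyond counting error.

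Klrc3, the third chain that pairs with CD94, was rare. It had 44 UMIs in Irf4-/- and 22 in WT in Cd8b1-positive cells (1.31 and 0.401 CPM), a log2 ratio of 1.71 (0.94 to 2.52). Cd8b1-negative cells had 72 UMIs in Irf4-/- and 20 in WT, a log2 ratio of 1.35 (0.62 to 2.15). In gamma-delta cells, with 18 UMIs in Irf4-/- and 9 in WT, the interval of the ratio of 1.20 reached from -0.03 to 2.54. Klrc1, Klrc2 and Klrc3 share sequence near their ends, where the reads fall. Of the 90-base words in the last 500 bases of coding transcripts, 21.9% of those of Klrc1 also occur in Klrc2, 8.49% of those of Klrc2 in Klrc1 or Klrc3, and 5.92% of those of Klrc3 in Klrc2. Reads from such words may be left uncounted, so the levels of the 3 chains are uncertain to that extent, whereas Klrd1, Klrk1 and Klre1 had no shared word.

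Klrk1, which encodes NKG2D, had its highest level in Cd8b1-negative cells and its highest ratio in Cd8b1-positive cells. In Cd8b1-positive cells it was at 104 CPM in Irf4-/- and 54.8 CPM in WT, a log2 ratio of 0.92 (0.85 to 0.99). In Cd8b1-negative cells it was at 286 CPM in Irf4-/- and 219 CPM in WT, a log2 ratio of 0.39 (0.33 to 0.44). In gamma-delta cells it was at 167 CPM in Irf4-/- and 158 CPM in WT, and the ratio of 0.08 (-0.03 to 0.19) was within counting error. The ratio between libraries therefore ran from high in Cd8b1-positive cells to near 0 in gamma-delta cells.

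Klre1, the common chain of the Klre/Klri receptors, was 3.07-fold higher in Irf4-/- in Cd8b1-positive cells, at 125 CPM in Irf4-/- and 40.7 CPM in WT (log2 ratio 1.62, 1.55 to 1.69). Cd8b1-negative cells had 187 CPM in Irf4-/- and 92.3 CPM in WT, a log2 ratio of 1.02 (0.94 to 1.09). Gamma-delta cells had 84.8 CPM in Irf4-/- and 34.0 CPM in WT, a log2 ratio of 1.32 (1.11 to 1.52). Klre1 was the only one of the 5 abundant genes with a ratio of 1 or more in every class.

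The partners of Klre1 were far less abundant than Klre1 itself. Klri1, the inhibitory partner, had 46 UMIs in Irf4-/- and 34 in WT in Cd8b1-positive cells, a log2 ratio of 1.15 (0.47 to 1.83). In Cd8b1-negative cells it had 110 and 65 UMIs, a ratio of 0.26 (-0.19 to 0.73), and in gamma-delta cells 37 and 31 UMIs, a ratio of 0.46 (-0.27 to 1.20), both within counting error. Klri2, the activating partner, had 162 UMIs in Irf4-/- and 47 in WT in Cd8b1-negative cells, a log2 ratio of 1.29 (0.81 to 1.79). Its ratio was 0.59 (0.06 to 1.12) in Cd8b1-positive cells, from 60 and 65 UMIs, and 0.67 (0.03 to 1.32) in gamma-delta cells, from 51 and 37 UMIs. Outside the Cd8b1-negative class the intervals of Klri2 thus came close to 0.

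**Figure D1:**
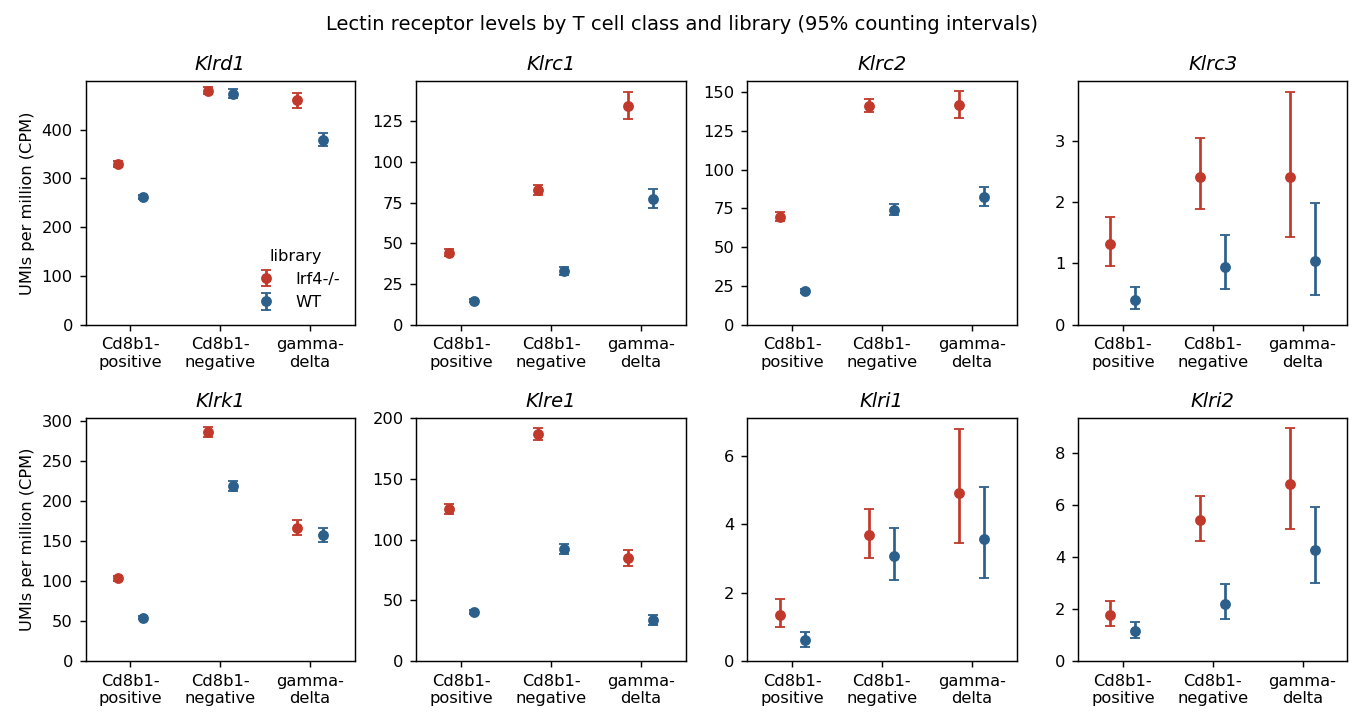
Level of each receptor in CPM (linear axis from 0, a different range in each panel) in 3 T cell classes, with the library labelled Irf4-/- left of WT and bars for the 95% Poisson interval of counting. Klre1, Klrc1 and Klrc2 lie higher in Irf4-/- in all 3 classes, while the Klrd1 points of Cd8b1-negative cells, 480.0 and 474 CPM, nearly coincide.

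Taking the 8 genes as a list, 7 had a log2 ratio of 0.5 or more in Cd8b1-positive cells, with Klrd1 as the exception, beside 8.38% of all 12506 genes with at least 20 UMIs. In Cd8b1-negative cells 5 of the 8 reached that ratio, beside 6.95% of 11924 genes, and in gamma-delta cells 5 of the 8, beside 7.53% of 10562 genes. All 8 were above 0 in each class, beside 51.8%, 46.4% and 50.2% of genes. None reached -0.5, a ratio at or below which 5.79%, 5.13% and 5.54% of genes lay. The median ratio of the 8 was 1.36, 0.97 and 0.72 in the 3 classes, beside 0.01, -0.02 and 0.00 over all genes tested. The genes were chosen for such differences, so nothing is read from these counts. Just inside the ratio of 0.5 were Klri2 in Cd8b1-positive cells (0.59) and in gamma-delta cells (0.67), and just outside were Klri1 in gamma-delta cells (0.46) and Klrk1 in Cd8b1-negative cells (0.39).

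**Figure D2:**
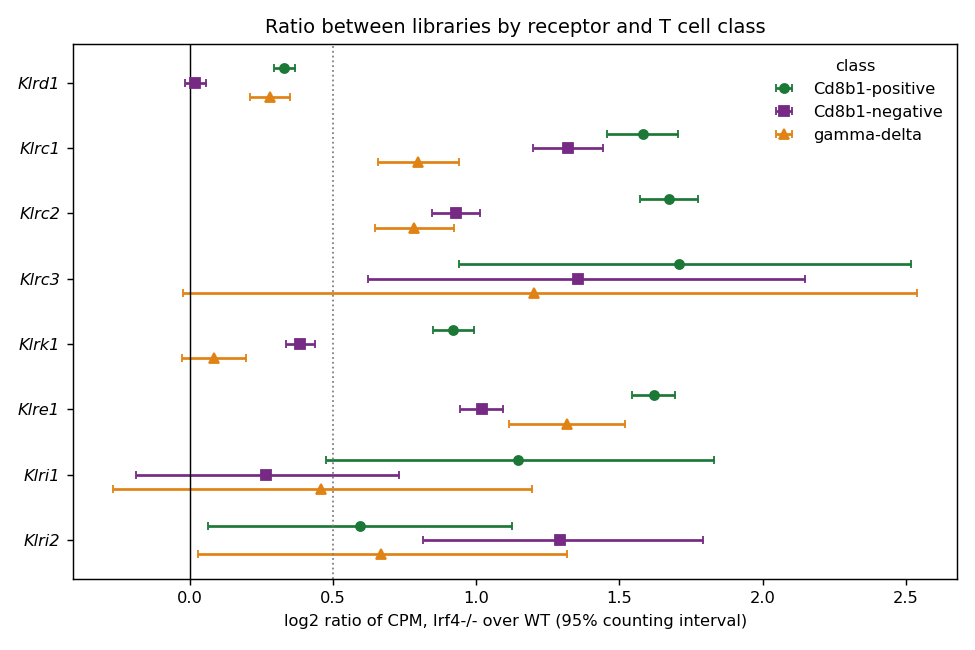
Log2 ratio of CPM, Irf4-/- over WT, for each receptor (rows) in Cd8b1-positive (circles), Cd8b1-negative (squares) and gamma-delta cells (triangles), with 95% counting intervals and a dotted line at 0.5. All 24 points lie above 0, and Klrd1 has the narrowest spread, between 0.02 and 0.33.

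The classes were ordered in much the same way in both libraries. Each of the 8 genes was higher in Cd8b1-negative than in Cd8b1-positive cells in both libraries. The log2 difference was least for Klrd1, 0.54 in Irf4-/- and 0.85 in WT, and for Klrk1 it was 1.46 in Irf4-/- and 1.999 in WT. Klrc1 was highest in gamma-delta cells, above Cd8b1-negative cells by 0.70 (0.60 to 0.81) on the log2 scale in Irf4-/- and by 1.23 (1.07 to 1.38) in WT. Klre1 ran the other way and was lowest in gamma-delta cells, with -1.14 (-1.26 to -1.02) in Irf4-/- and -1.44 (-1.62 to -1.26) in WT against Cd8b1-negative cells. Klrc2 in gamma-delta and Cd8b1-negative cells could not be separated in Irf4-/-, at 0.01 (-0.09 to 0.10), and differed by 0.15 (0.02 to 0.28) in WT. Klrk1 was highest in Cd8b1-negative cells, then gamma-delta cells, then Cd8b1-positive cells, in both libraries. Klrd1 had the same order, although in Irf4-/- its gamma-delta level was only 0.06 below (interval -0.11 to -0.01).

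Because the libraries differ in depth, shares of positive cells were counted after thinning each cell to 3000 UMIs, which left out 14 Irf4-/- and 125 WT cells of the 3 classes. A UMI of any of the 8 genes was then seen in 72.2% of Cd8b1-positive cells in Irf4-/- and 56.4% in WT, where the unthinned shares were 94.0% and 79.6%. Among Cd8b1-negative cells the share was 90.8% in Irf4-/- and 83.1% in WT (97.4% and 92.7% unthinned), and among gamma-delta cells 85.2% in Irf4-/- and 75.7% in WT (96.1% and 88.0% unthinned). B cells, which should lack the receptors, had a UMI in 2.24% of 937 thinned cells in Irf4-/- and 3.89% of 437 in WT. Median depth before thinning was 4154 and 2974 UMIs in B cells, against 11078 and 7908 in Cd8b1-positive cells.

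The single genes show where the difference in share lies. Klre1 was seen in 23.04% of Cd8b1-positive cells in Irf4-/- and 8.29% in WT, in 33.2% and 18.6% of Cd8b1-negative cells, and in 17.3% and 7.58% of gamma-delta cells. Klrc2 was seen in 15.9% of Cd8b1-positive cells in Irf4-/- and 5.19% in WT, in 30.2% and 16.2% of Cd8b1-negative cells, and in 31.5% and 18.1% of gamma-delta cells. Klrc1 was seen in 11.1% of Cd8b1-positive cells in Irf4-/- and 3.70% in WT, in 17.9% and 8.06% of Cd8b1-negative cells, and in 29.2% and 16.5% of gamma-delta cells. All 3 were thus found in more cells of the library labelled Irf4-/-. Klrk1 shares were 17.5% in Irf4-/- and 10.2% in WT, 42.0% and 32.8%, and 26.7% and 24.8% in the same order of classes. Klrd1, the broadest, was seen in 56.8% of cells in Irf4-/- and 48.3% in WT, in 71.0% and 68.8%, and in 69.2% and 59.8%. Klrc3, Klri1 and Klri2 stayed under 1.8% of cells in every class of either library, and had a UMI in 0 of the 937 Irf4-/- and 437 WT thinned B cells, where a floor of 3 counts allows a share of cells with a UMI of up to 0.320% and 0.686%.

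For single receptors, shares of positive cells differed more between libraries than UMIs per positive cell did. For Klre1 in Cd8b1-positive cells the log2 ratio of shares was 1.47, while positive cells held 1.58 UMIs in Irf4-/- and 1.44 in WT, a log2 difference of 0.14. For Klrc1 the same values were 1.58 for shares and 0.14 for UMIs per positive cell, and for Klrc2 they were 1.62 and 0.09. At this depth most positive cells of these genes hold 1 UMI, so a higher level in each cell also raises the share, and the 2 cannot be fully told apart. For the 8 genes summed, the log2 ratio of shares was smaller than that of UMIs per positive cell in each class: 0.36 and 0.42 in Cd8b1-positive cells, 0.13 and 0.29 in Cd8b1-negative cells, and 0.17 and 0.30 in gamma-delta cells. A share cannot rise above all cells, and the summed share was already 83.1% of Cd8b1-negative cells in WT, which limits its ratio. UMIs per positive cell of the sum also rise when more of the 8 receptors are seen in a cell. The summed values therefore do not show whether shares or levels differed more. Cells with any receptor UMI held 2.84 such UMIs in Irf4-/- and 2.12 in WT among Cd8b1-positive cells.

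The receptors were more often found together in the library labelled Irf4-/-. Cells with 4 or more of the 8 genes made up 4.55% of Cd8b1-positive cells in Irf4-/- and 0.855% in WT. They made up 11.4% in Irf4-/- and 4.06% in WT among Cd8b1-negative cells, and 10.2% in Irf4-/- and 3.75% in WT among gamma-delta cells. The mean number of receptors per cell was 1.26 in Irf4-/- and 0.762 in WT, then 1.98 and 1.46, then 1.78 and 1.29.

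**Figure D3:**
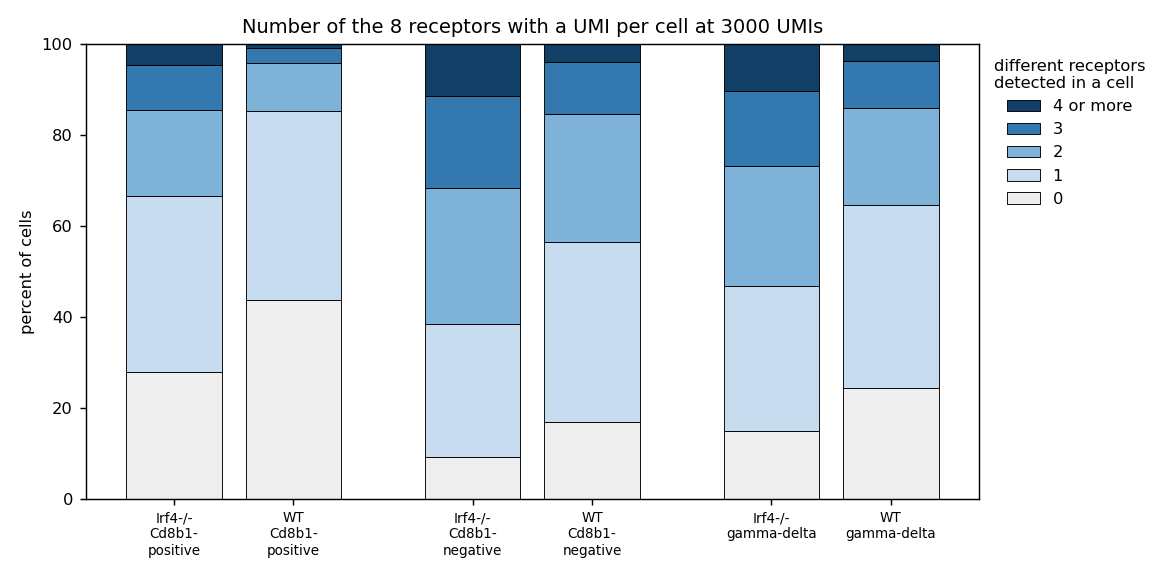
Percent of cells with UMIs of 0, 1, 2, 3 or 4 or more of the 8 receptors, each cell thinned to 3000 UMIs, with the library labelled Irf4-/- left of WT for each class. The part with none is 27.8% in Irf4-/- and 43.6% in WT among Cd8b1-positive cells, and the part with 4 or more is larger in Irf4-/- in each class.

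Co-expression was measured as cells with UMIs of both genes over the number given by the product of the single shares, within 1 class and library. Klrc1 and Klrc2, an inhibitory and an activating chain for the same partner, were together in 4.11% of Cd8b1-positive cells in Irf4-/- and 0.807% in WT. That was 2.33 times the product in Irf4-/- and 4.20 times in WT. In Cd8b1-negative cells the pair was at 1.34 times in Irf4-/- and 2.05 times in WT, and in gamma-delta cells at 1.51 and 2.07 times. Most cells with either chain had a UMI of 1 of them: 6.99% of Cd8b1-positive cells in Irf4-/- had Klrc1 alone and 11.8% Klrc2 alone, against 2.90% and 4.38% in WT. A missing UMI at this depth does not show that a chain was absent.

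The pairs among Klrc1, Klrc2, Klrk1 and Klre1 were all above the product, in every class of both libraries. Klrc2 and Klrk1 were at 2.20 times the product in Irf4-/- and 3.14 times in WT in Cd8b1-positive cells, and Klrc2 and Klre1 at 1.89 and 3.93 times. In this class the WT value was the higher one for each of these 6 pairs. However, each of these genes was seen in more cells in Irf4-/-, which lowers the highest multiple that library can reach. The multiples therefore do not compare the libraries in how closely the genes go together. Klrd1 with its partner chains lay nearer to the product, but the measure itself sets part of this. The commoner a gene is, the lower the highest multiple it can reach. At equal depth Klrd1 was seen in 48.3% of cells (Cd8b1-positive, WT) to 71.0% (Cd8b1-negative, Irf4-/-). The multiples therefore do not compare how closely Klrd1 and the other genes go together. With Klrc1, Klrd1 was at 1.13 times in Irf4-/- and 1.11 times in WT in Cd8b1-positive cells, and at 1.003 and 0.940 times in Cd8b1-negative cells. With Klrc2 it was at 1.16 times in Irf4-/- and 1.36 times in WT in Cd8b1-positive cells, and at 1.04 and 1.03 times in Cd8b1-negative cells. Klrd1 was seen in 64.1% of Cd8b1-positive cells with any Klrc UMI in Irf4-/- and 61.4% in WT, and in 54.6% and 47.1% of those without one. Klrd1 was thus frequent also where no Klrc chain was seen.

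Klre1 and its partners gave few cells to count. Among Cd8b1-negative cells of the library labelled Irf4-/-, 26 had Klre1 and Klri2, where the product gives 14.3, and 10 had Klre1 and Klri1, where it gives 11.6. In WT the counts were 9 for Klri2, where the product gives 4.09, and 11 for Klri1, where it gives 5.02. No cell of any class in either library had UMIs of both Klri1 and Klri2, where the products were all under 1 cell. Klrk1 and its adaptor Hcst were at 1.03 to 1.07 times in all classes and libraries, but Hcst was in most cells, which leaves little room above the product. In Cd8b1-positive cells Hcst was seen in 86.7% of Klrk1-positive and 79.6% of Klrk1-negative cells in Irf4-/-, and in 81.7% and 78.9% in WT. Its share was higher in Klrk1-positive cells in the other classes too. Klrk1 and Fcer1g, a signalling chain of Fc and natural killer receptors, were together at 2.15 times in Irf4-/- and 3.02 times in WT in Cd8b1-positive cells.

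**Figure D4:**
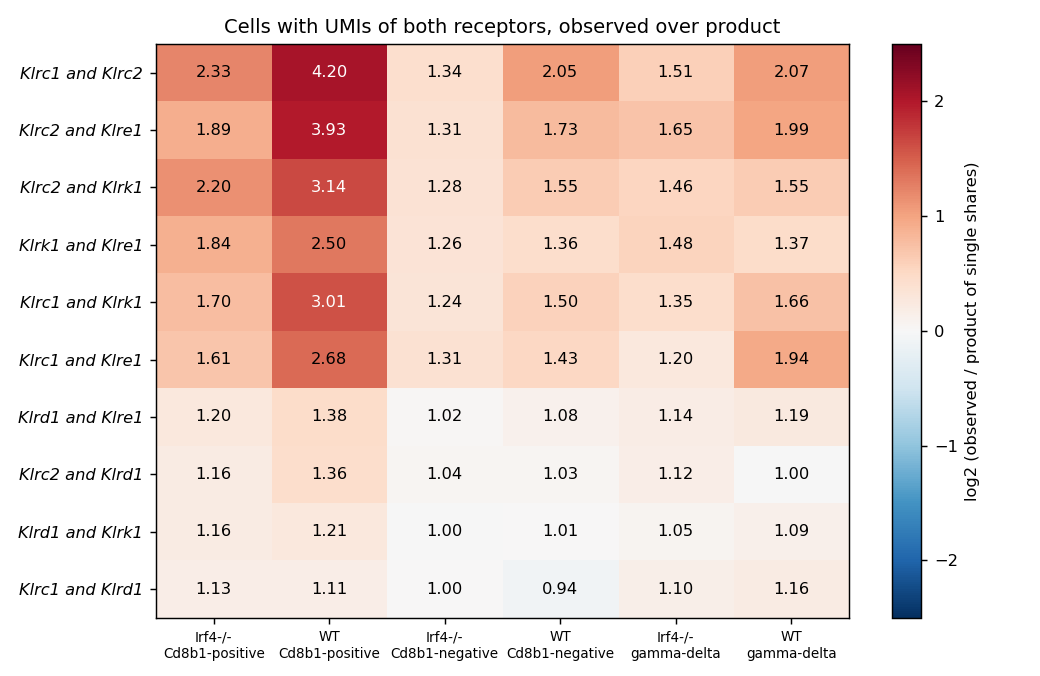
Cells with UMIs of both receptors of a pair, as a multiple of the product of the single shares (printed in each field, colour on a log2 scale), for 10 pairs of the 5 abundant receptors by class, with Irf4-/- left of WT. The 6 upper pairs are above 1 throughout, and the 4 lower pairs, all with Klrd1, lie between 0.940 and 1.38. Klrd1 is seen in many cells, which lowers the highest multiple its pairs can reach. The same limit holds between libraries, since these receptors are seen in more cells in Irf4-/-.

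Levels of Cd8b1 itself, which encodes the CD8 beta chain, differed within the Cd8b1-positive class, at 506 CPM in Irf4-/- and 778 CPM in WT. The class was gated on UMIs before thinning, so membership depends on depth, with a median of 11078 UMIs in Irf4-/- and 7908 in WT. At equal depth a Cd8b1 UMI was seen in 68.9% of the class in Irf4-/- and 84.6% in WT. At 3000 UMIs, 61.1% of the class in Irf4-/- and 39.2% in WT had 0 or 1 Cd8b1 UMI, 26.5% and 35.5% had 2 or 3, and 12.3% and 25.3% had 4 or more. In both libraries each of the 5 abundant receptors was lower in cells with more Cd8b1. Klre1 was at 158 CPM in Irf4-/- and 66.6 CPM in WT at 0 or 1 UMI, and at 50.5 and 15.2 CPM at 4 or more. Within these strata, Klre1 had a log2 ratio of 1.24, 1.58 and 1.74, Klrc2 of 1.37, 1.43 and 1.34, and Klrc1 of 1.46, 1.19 and 1.31. Klrk1 had 0.77, 0.21 and 0.62, and Klrd1 0.23, 0.23 and 0.13. Klre1, Klrc1 and Klrc2 thus stayed over 1 on the log2 scale at every Cd8b1 level, whereas Klri2 was at -0.19 (-0.82 to 0.43) at 0 or 1 UMI.

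**Figure D5:**
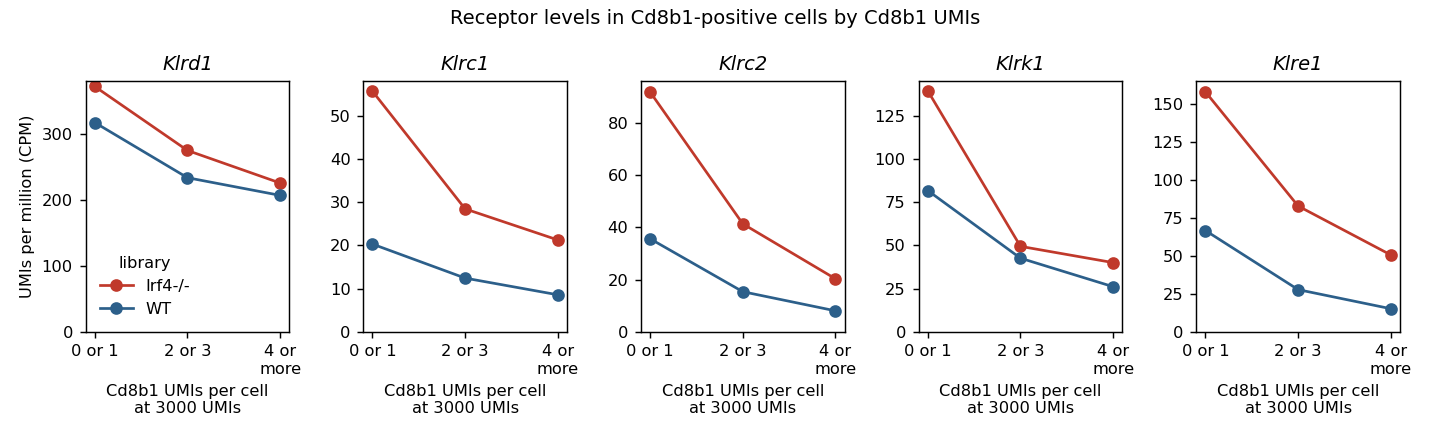
Level in CPM (linear axis from 0) of the 5 abundant receptors in Cd8b1-positive cells with 0 or 1, 2 or 3, and 4 or more Cd8b1 UMIs after thinning to 3000 UMIs, for the libraries labelled Irf4-/- and WT. Levels are lower with more Cd8b1 in both, and the lines of Klrc1, Klrc2 and Klre1 stay apart at each level.

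Ccr7, a homing receptor of naive and central memory T cells, was at 53.7 CPM in Irf4-/- and 79.5 CPM in WT in Cd8b1-positive cells, a log2 ratio of -0.56. It was detected in 13.4% of those cells in Irf4-/- and 19.8% in WT at equal depth, and in 41.0% and 42.8% without thinning, which is the split used next. Among Cd8b1-positive cells with a Ccr7 UMI the log2 ratios were 1.79 for Klrc1, 1.70 for Klrc2 and 1.70 for Klre1, and among those without one they were 1.47, 1.63 and 1.55. Klri2 had -0.54 among cells with Ccr7, from 12 UMIs in Irf4-/- and 30 in WT. Other genes high in naive T cells were also lower in Cd8b1-positive cells of the library labelled Irf4-/-, with log2 ratios of -0.81 for Il7r, -0.81 for Dapl1, -0.40 for Lef1 and -0.28 for Tcf7. Their part in the receptors' ratios was not tested beyond the Ccr7 split.

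The neighbouring lectin receptors of the Klra, Klrb and Klrg families were compared as the most alike group. Of the 13 with enough UMIs in Cd8b1-positive cells, 9 had a ratio of 0.5 or more, beside 8.38% of all genes tested. There 1 had -0.5 or less, beside 5.79%, and the median was 0.91. In Cd8b1-negative cells 4 of 12 had 0.5 or more, beside 6.95% of genes, with a median of 0.24. In gamma-delta cells it was 6 of 9, beside 7.53%, with a median of 0.55. Klra7, an inhibitory Ly49 receptor, was at 135 CPM in Irf4-/- and 71.2 CPM in WT in Cd8b1-positive cells (log2 ratio 0.92), and at 234 and 244 CPM in Cd8b1-negative cells (-0.06). Cells with any Klra UMI at equal depth were 46.7% in Irf4-/- and 26.2% in WT of Cd8b1-positive cells, and 66.2% and 62.8% of Cd8b1-negative cells. Klre1 was seen in 35.4% of Klra-bearing Cd8b1-positive cells in Irf4-/- and 21.8% in WT, and in 12.2% and 3.49% of those without a Klra UMI. Klre1 was thus seen more often in Irf4-/- on both sides of that split. In Cd8b1-negative cells Klrc1 ran the other way, at 16.6% in Irf4-/- and 7.03% in WT with a Klra UMI, and 20.4% and 9.79% without one.

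The adaptors that carry the receptors' signals were taken as a list, and their ratios were not tested against those of the receptors. Of 14 adaptor and signalling genes, 3 had a ratio of 0.5 or more in Cd8b1-positive cells, beside 8.38% of all genes tested. None had -0.5 or less, beside 5.79%, and the median was 0.06 in each of the 3 classes. Hcst, the DAP10 adaptor of NKG2D, was at 587 CPM in Irf4-/- and 543 CPM in WT in Cd8b1-positive cells (log2 ratio 0.11). Tyrobp, the DAP12 adaptor of CD94/NKG2C and of NKG2D, was at 16.5 CPM in Irf4-/- and 8.14 CPM in WT in Cd8b1-positive cells (1.02), and at 54.8 and 24.0 CPM in Cd8b1-negative cells (1.19). Fcer1g had ratios of 0.92, 0.11 and 0.52 in the 3 classes. Tyrobp is also a marker of natural killer and myeloid cells.

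Ligands and their loading genes gave 1 of 9 at 0.5 or more in Cd8b1-positive cells, near the 8.38% of all genes tested. They gave 1 at -0.5 or less, beside 5.79%, and the median was 0.21. H2-T23, the heavy chain of Qa-1, was at 191 CPM in Irf4-/- and 153 CPM in WT in Cd8b1-positive cells, a log2 ratio of 0.32 (0.27 to 0.36). It was at 222 and 160.3 CPM in Cd8b1-negative cells (0.47) and at 236 and 169 CPM in gamma-delta cells (0.48). Ulbp1, which encodes the NKG2D ligand MULT1, was at 8.90 CPM in Irf4-/- and 6.28 CPM in WT in Cd8b1-positive cells (0.50). Raet1d, Raet1e and H60c had at most 3 UMIs in any class of either library.

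Among 14 transcription and cytokine genes, 4 had 0.5 or more in Cd8b1-positive cells, beside 8.38% of all genes tested. They were Zfp683 (1.64), Zbtb16 (0.71), Nfil3 (0.69) and Ikzf2 (0.61). Zfp683 had only 21 UMIs in Irf4-/- and 11 in WT. Zbtb16 had 12 in each, with an interval from -0.57 to 1.99. There 1 gene, Prdm1 (-1.20), had -0.5 or less, beside 5.79%. The medians of the list were 0.42, 0.26 and 0.08 by class. Il2rb, which encodes the CD122 of the gate, had 0.42, 0.14 and 0.31. Id2, an inhibitor of E proteins in innate-like lymphocytes, had 0.36, 1.15 and 1.04, and Tbx21, which encodes T-bet, 0.44, 0.46 and 0.08. Eomes had -0.09, 0.19 and -0.02, and Runx3 -0.20, -0.11 and -0.01. Neither of these last 2 reached 0.5 in any class.

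The genes whose counts went most with the summed 8 receptors across alpha-beta T cells were Ccl5, Fcer1g, Klra7, Tmsb4x, Xcl1, Ikzf2, Cd160 and Anxa2. Ccl5, a chemokine of memory T cells and natural killer cells, had a Pearson r of 0.40 over 5728 cells in Irf4-/- and 0.34 over 9446 cells in WT, on log counts at equal depth. Cd8b1 had the lowest, -0.37 in Irf4-/- and -0.39 in WT. Among pairs of the receptors Klrc2 and Klrk1 had the highest r, 0.25 in Irf4-/- and 0.23 in WT, and Klrc1 and Klrd1 had 0.04 and 0.03. The cells of a library share its depth and preparation, and these values are descriptions.

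Markers of other cells were not equal between the libraries. The 7 natural killer and innate lymphoid markers (Ncr1, Klrb1c, Eomes, Itga2, Tyrobp, Cd244a, Fcgr3) summed to 125 CPM in Irf4-/- and 106 CPM in WT in Cd8b1-positive cells, to 203 and 145 CPM in Cd8b1-negative cells, and to 194 and 144 CPM in gamma-delta cells. Eomes made up most of the sum in Cd8b1-positive cells, at 77.7 CPM in Irf4-/- and 82.5 CPM in WT. Of the 6 markers with enough UMIs there, 4 had a log2 ratio of 0.5 or more, beside 8.38% of all genes tested. They were Klrb1c (1.31), Tyrobp (1.02), Itga2 (0.999) and Cd244a (0.96), and the median of the 6 was 0.98. In Cd8b1-negative cells 3 of 7 had 0.5 or more, beside 6.95% of genes, and 1 had -0.5 or less, beside 5.13%, with a median of 0.41. In gamma-delta cells 5 of 7 had 0.5 or more, beside 7.53%, with a median of 0.73. The part of these markers in the receptors' ratios was not tested beyond leaving out cells with Ncr1. Ncr1 was at 0 in Cd8b1-positive cells of the library labelled Irf4-/-. Myeloid markers summed to 8.22 CPM in Irf4-/- and 8.92 CPM in WT in Cd8b1-positive cells, from 276 and 490 UMIs. They summed to 37.3 and 2.60 CPM in Cd8b1-negative cells, from 1112 and 55 UMIs, and to 10.9 and 43.5 CPM in gamma-delta cells, from 82 and 376 UMIs. The cell with most myeloid UMIs held 184 of them in Irf4-/- and 285 in WT, then 1020 and 7, then 44 and 315. The totals thus rest largely on single cells except among Cd8b1-negative WT cells. Without the cells that had an Ncr1 UMI or 3 or more myeloid UMIs, 4 and 12, 23 and 6, and 14 and 5 cells by class, every receptor's ratio stayed above 0 in each class.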

How the data were processed

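The deposited values are UMI counts of each gene in each barcode. Per the file headers they come from Cell Ranger 6.1.1, and the submitters' processing notes name build mm10. The 8 genes and the gene lists were chosen with earlier results of these data known. Barcodes with at least 500 genes, 1000 UMIs and under 10% mitochondrial UMIs were kept. Classes were set by gates and not by clusters: T cells had 3 or more Cd3d, Cd3e and Cd3g UMIs and at most 2 of Cd79a and Cd79b, gamma-delta cells 2 or more Trdc UMIs and no fewer than Trac, and alpha-beta cells 2 or more Trac, Trbc1 and Trbc2 UMIs and no Trdc. B cells had 5 or more Cd79a and Cd79b UMIs and at most 1 CD3 UMI. No doublet caller was run. CPM has an exact Poisson interval, ratios an exact conditional binomial interval and shares an exact Clopper-Pearson interval, all at 95% and for counting error only. The named genes are the 8 receptors, members of the lists (1 list member is not reported here), and the 8 genes with at least 50 CPM in alpha-beta T cells whose counts correlated most with the receptors. Cells were thinned with a fixed seed. The ratio computation was tested on simulated data. Alternatives covered scaling, cell filters, gates, depth and strata, and 2 were added after seeing the data: equal weight of Cd8b1 strata, and leaving out cells with natural killer or myeloid transcripts. Python 3.11.15, scipy 1.17.1, R 4.3.3 and edgeR 4.0.16 (for TMM factors only) were used.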

Additional observations from a re-analysis of the deposited data

How the results depend on the processing

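None of the ratios or summaries changed sign in a called value under the alternatives run. Of 295 recomputed ratios of single receptors, 278 stayed within the counting interval of the reported value and 17 did not, and 1 was below 0: Klri1 in Cd8b1-negative cells, at -0.01 with cells with and without Ccr7 given equal weight. For values over the 8 genes, shares were held against their counting intervals, but medians and counts had wider limits. A median stayed if it lay between the lowest and highest of the 8 ratios, 0.33 to 1.71 in Cd8b1-positive cells. A count of receptors stayed if it changed by no more than a fixed factor. Medians could thus hardly move. Of 142 recomputed values over the 8 genes, 120 stayed and 22 moved. All that moved, but 1, were shares of cells with any receptor, given here for Irf4-/- and then WT. With Cd8b1-positive cells taken at 2 or more UMIs the share was 68.0% and 53.5%. With classes set on thinned cells it was 68.3% and 53.9% in Cd8b1-positive and 89.1% and 80.1% in Cd8b1-negative cells. Thinned to 2000 UMIs it was 62.7% and 45.8%, 82.7% and 74.3%, and 79.0% and 67.2% in the 3 classes. Thinned to 5000 UMIs it was 83.5% and 70.6%, 95.4% and 91.5%, and 92.8% and 85.4%. With Ccr7 strata at equal weight the WT share in Cd8b1-negative cells was 81.4%, and with Cd8b1 strata at equal weight the shares in Cd8b1-positive cells were 65.2% and 55.0%. With gamma-delta cells taken at 3 Trdc UMIs and no Trac, 3 receptors reached 0.5 and not 5. Causes other than the depth set by thinning were not tested. The TMM factors, Irf4-/- over WT, were 0.02, -0.03 and 0.01 on the log2 scale by class, and were subtracted from the ratios. Over all alternatives the log2 ratios in Cd8b1-positive cells ran from 0.61 to 0.98 for Klrk1 and from 1.38 to 1.75 for Klrc2. They ran from 1.35 to 1.60 for Klrc1, from 1.41 to 1.65 for Klre1 and from 0.20 to 0.38 for Klrd1. Klrc3, Klri1 and Klri2 are limited by few UMIs. No paired analysis was possible because there is 1 library per genotype.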
